A study of Danio rerio with 6 samples.

Results

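The genes described here encode the contractile apparatus and the calcium machinery of skeletal muscle in zebrafish larvae, and their transcript levels were compared between miR-34a-/- and wild-type animals at 72 hours post-fertilization (hpf). The members were a list of 60 gene symbols, split into genes of fast fibres, genes of slow fibres and genes common to both, and matched to the Ensembl IDs of the count table ignoring case. Of these, 35 names were found under their own symbol, on 36 IDs because the symbol MYL1 stands on 2 of them. A further 3 names (acta1b, ttn.1 and ryr1b) were paired with an ID in a gene table of the study. For 21 names the name table gave only a shared symbol. This was MYL1 for mylz3, and for the others 11 family symbols such as TNNI2 or ACTA1, carried by 22 IDs. The individual copies were not assigned from these symbols and are printed with their ID. The slow myosin gene smyhc3 had no ID. This gave 61 IDs of 32520 in the table, of which 32 were fast, 5 slow and 24 common. DES and SMYD1 each stand on 2 IDs where the list holds 1 gene, so 1 ID of each is not a member. The 2 CACNA1S IDs, which stand for a fast and a slow copy, were kept in the common class. All 61 IDs passed the filter on low counts.

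The sarcomere is the contractile unit of striated muscle, in which myosin thick filaments pull on actin thin filaments anchored at the Z-disc, while titin spans from Z-disc to the middle of the sarcomere. Contraction starts when the dihydropyridine receptor in the membrane opens the ryanodine receptor, calcium leaves the sarcoplasmic reticulum and binds troponin, and it ends when SERCA pumps return calcium to the store, where calsequestrin binds it. Fish fast muscle also holds large amounts of parvalbumin, a soluble calcium buffer that speeds relaxation, and slow and fast fibres use different copies of myosin and troponin.

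RNA came from whole embryos at 72 hpf, and the 6 libraries fall into 2 groups, 3 miR-34a-/- and 3 wild-type. Both groups carried the casper mutations that remove most pigment, and per the study's methods each library was a pool of 30 embryos. The miR-34a-/- embryos came from a maternal-zygotic homozygous line with a CRISPR/Cas9 deletion of the microRNA gene, so loss of miR-34a and other differences between the 2 lines cannot be told apart. Nothing in the labels says that the pools came from separate clutches, so p-values measure the spread between these pools, which may be technical.

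miR-34a is a microRNA, a short RNA that lowers the stability and translation of transcripts it pairs with. The study designed an oligo with 3 copies of a sequence that miR-34a recognises, and it is shown because it spells out what the deleted RNA pairs with. Capitals mark the stretch that pairs with the seed, bases 2 to 8 of the microRNA, and the letters run 5′ to 3′.
miR-34a target site of the sensor oligo: acaaccagctaagaCACTGCCa
Reference sequences of the muscle genes were not used here, so no member was searched for such a site.

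Total counts per library ran from 10273343 to 16369150, and 3 counts corresponded to between 0.186 and 0.293 CPM, the counts scaled to a common library size. The deleted gene could not serve as a check of the labels, because mir34a, mir34b and mir34c were at 0 in all 6 libraries. One miR-34a-/- library stood apart from its replicates over the 500 most variable genes, from which muscle genes were not removed. In root mean square log2 difference, miR-34a-/- replicate 1 lay 0.967 and 1.13 from miR-34a-/- replicates 2 and 3, which were 0.46 apart. Wild-type libraries were between 0.399 and 0.53 apart. From wild-type libraries, miR-34a-/- replicates 2 and 3 lay between 1.09 and 1.39, and miR-34a-/- replicate 1 lay between 1.07 and 1.2. The summed photoreceptor markers moved with it: all 25 IDs of that list summed to 541, 1688 and 1739 CPM in miR-34a-/- replicates 1 to 3, against 1672, 1193 and 844 CPM in wild-type, with opn1mw4 at 0 in every library. Not every ID followed this sum. In miR-34a-/- replicates 1 to 3, crx (ENSDARG00000043483) had 47.7, 39.4 and 40.9 CPM and nr2e3 had 17.4, 15.4 and 18.0 CPM. A list of 6 tendon, cartilage and bone IDs summed to 332, 757 and 731 CPM in miR-34a-/- against 658, 463 and 389 CPM in wild-type, with bglap at 0. Most of this sum was matn1, at 242, 617 and 609 CPM in miR-34a-/- against 532, 354 and 285 CPM in wild-type. Among miR-34a-/- libraries acana and tnmd were also lowest in replicate 1. The bone markers sp7 (4.27, 4.50 and 4.26 CPM in miR-34a-/-) and runx2b (1.96, 1.96 and 1.16 CPM) were not. Hemoglobin moved with genotype instead, with 16 IDs at a summed 4037, 3548 and 4397 CPM in miR-34a-/- against 1361, 1349 and 1270 CPM in wild-type, and 2 hbe1 IDs at 0. The part of these cell types in the muscle values was not tested. Calls that changed without miR-34a-/- replicate 1 are given both ways for the members named.

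The summed share of counts taken by the muscle members did not separate the genotypes. All members together took 8.97, 9.68 and 9.77% of counts in the miR-34a-/- libraries, against 9.31, 9.45 and 9.64% in wild-type. The means were 9.48% ± 0.44 and 9.46% ± 0.16 (SD, n = 3 each), and the difference was smaller than the spread between replicates. In whole-embryo RNA, fewer muscle cells and less muscle RNA per cell cannot be told apart.

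Fast members made up 6.21, 6.75 and 6.84% of counts in miR-34a-/- against 6.54, 6.62 and 6.74% in wild-type. Slow members made up 0.115, 0.111 and 0.104% in miR-34a-/- against 0.114, 0.105 and 0.108% in wild-type. Common members made up 2.65, 2.82 and 2.83% in miR-34a-/- against 2.65, 2.72 and 2.79% in wild-type. In each class the genotypes overlapped, and the ratio of fast to slow counts averaged 60.1 ± 5.9 in miR-34a-/- and 60.9 ± 3.0 in wild-type (SD, n = 3 each). The lowest fast share and the lowest fast to slow ratio, 53.9, were both in miR-34a-/- replicate 1.

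**Figure D1:**
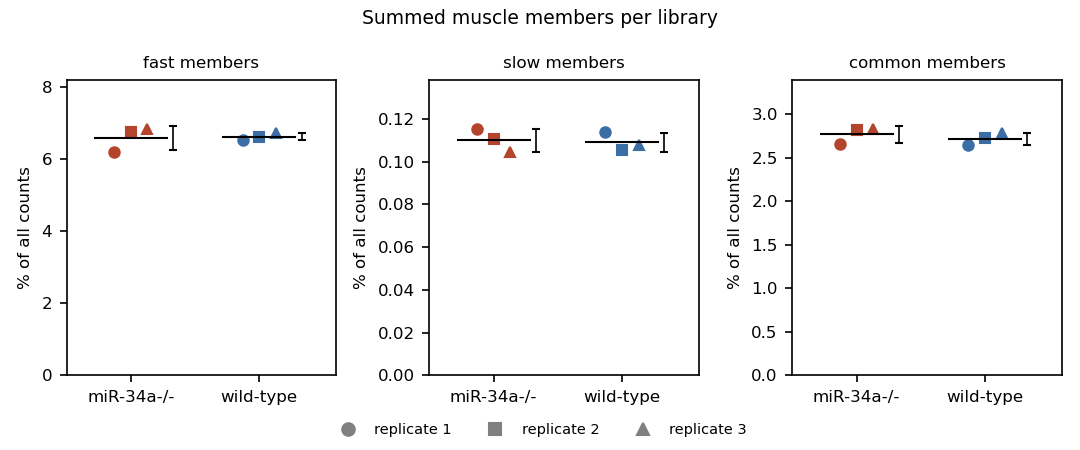
Percent of all counts (y axis from 0) taken by fast, slow and common members in each library, with miR-34a-/- left of wild-type; points are libraries, lines are means and bars are SD (n = 3 each). In all 3 classes the points of the genotypes overlap, for example 6.21 to 6.84% for fast members in miR-34a-/- against 6.54 to 6.74% in wild-type.

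Single members were then read from a fit across all 19240 genes tested (edgeR quasi-likelihood test, Benjamini-Hochberg adjusted p under 0.05). Of the 61 IDs, 5 passed, or 8.2%, where 2.6% of all tested genes passed. Of these, pvalb3 and an ACTA1 copy were higher in miR-34a-/- (2 IDs, where 1.33% of all genes were), and myha, a CASQ1 copy and ky were lower (3 IDs, where 1.27% were). For pvalb3, myha and ky the fold change was also over 1.5, as for 1.88% of all genes. The median log2 fold change over the 61 IDs was 0.05, against -0.01 over all genes tested, and 38 lay above 0. Without adjustment 17 IDs had p under 0.05, where 15.3% of all genes did, and in 12 the libraries of the genotypes did not overlap, where 21.2% of all genes did not. The fast class had 2 of 32 past the test (median 0.07) and the common class 3 of 24 (median -0.004). The slow class had 0 of 5 (median 0.14), with 1 at unadjusted p under 0.05. In the slow class 0 passed the DESeq2 Wald test (2.9% of all genes), the likelihood ratio test (5.05%) or limma-voom (2.46%). Without miR-34a-/- replicate 1 the counts were 13 of 32 fast, 13 of 24 common and 2 of 5 slow IDs, where 15.6% of all genes passed. With the mean log2 level of the photoreceptor IDs as a term in the fit they were 8, 10 and 1, where 8.71% passed.

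**Figure D2:**
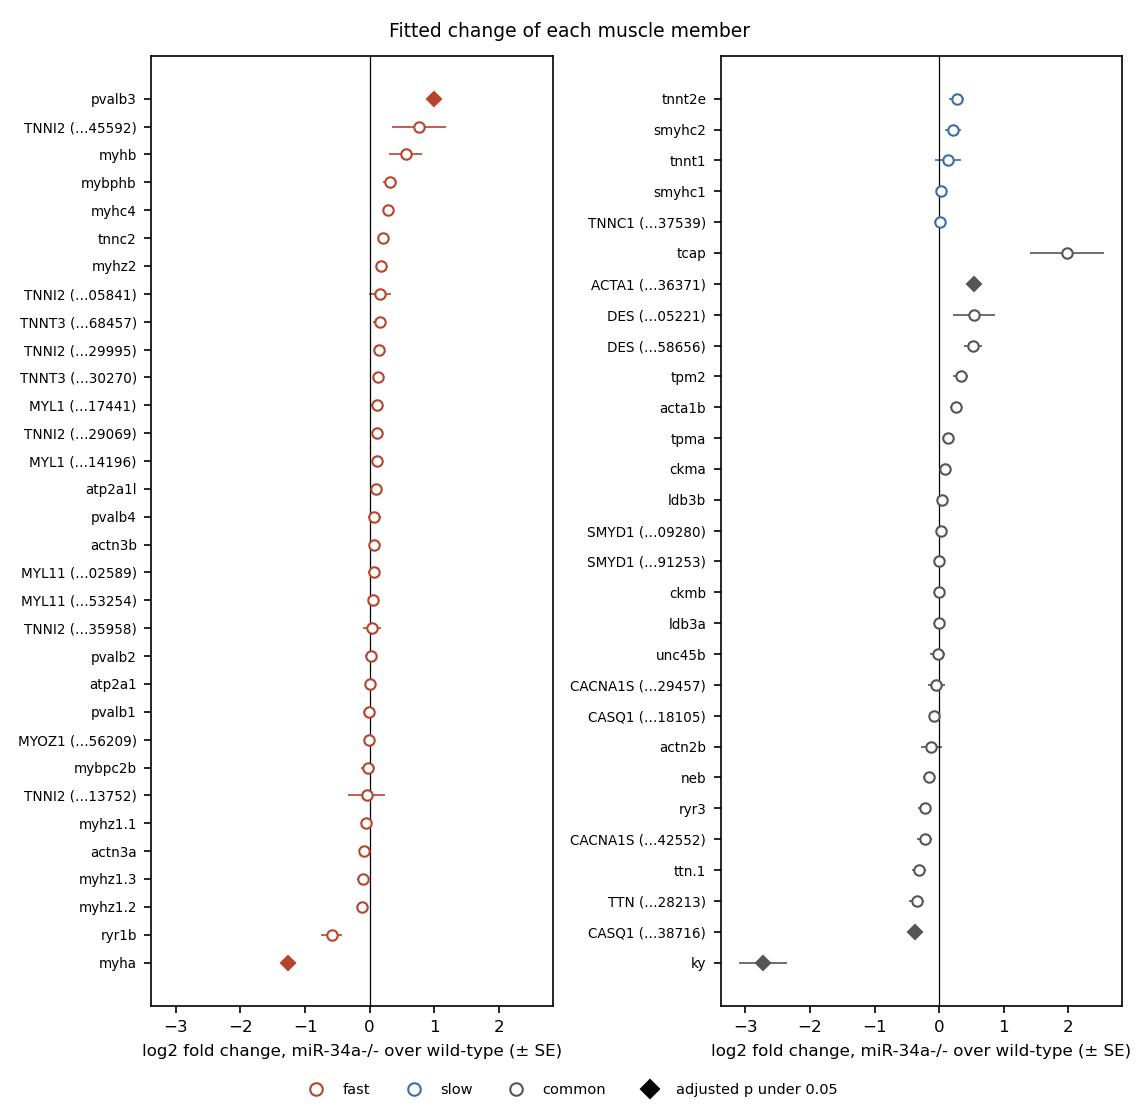
Fitted log2 fold change of each of the 61 IDs, miR-34a-/- over wild-type (x axis, bars are SE), coloured by class, with filled diamonds for the 5 IDs at an adjusted p under 0.05; labels in brackets end with the last digits of the Ensembl ID. Most members lie near 0, ky (-2.73) and myha (-1.26) lie far to the left, and tcap (1.98) lies far to the right with a wide error.

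Among myosin heavy chains, the motor proteins of the thick filament, myha was lower in miR-34a-/- and the copies beside it were not. Expression of myha was 12.4, 12.03 and 10.7 CPM in miR-34a-/- libraries, against 25.4, 30.5 and 28.2 CPM in wild-type. Every miR-34a-/- library was below every wild-type library. The log2 fold change was -1.26 ± 0.11 (SE, n = 3 each; adjusted p = 0.000341, edgeR quasi-likelihood test). In the gene order of RefSeq (assembly GRCz12tu, not the build of the counts), 6 fast heavy chain genes lie side by side: myhz2, myhc4, myha, myhz1.3, myhz1.2 and myhz1.1. The other copies had log2 fold changes between -0.12 for myhz1.2 and 0.28 for myhc4. None passed the quasi-likelihood test with all libraries (smallest adjusted p = 0.0908, myhc4). With all libraries myhc4 did pass by the edgeR likelihood ratio test and with the photoreceptor term. Leaving out miR-34a-/- replicate 1 gave calls for myhc4 (0.35, adjusted p = 0.00202) and myhz2 (0.22, adjusted p = 0.0281) as well.

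As a share of the counts of these 6 copies, myha took 0.112% ± 0.009 in miR-34a-/- and 0.263% ± 0.026 in wild-type (SD, n = 3 each). It was the smallest share of the 6 in both genotypes. The share of myhz2 was 21.4% ± 0.8 in miR-34a-/- and 18.7% ± 0.7 in wild-type, that of myhc4 1.55% ± 0.09 and 1.25% ± 0.05, that of myhz1.2 18.0% ± 0.5 and 19.2% ± 0.1, and that of myhz1.1 45.9% ± 0.6 and 46.9% ± 0.3. In the shares of these 4 copies and myha the libraries of the genotypes did not overlap. In myhz1.3 they did (13.0% ± 1.1 in miR-34a-/-, 13.7% ± 1.0 in wild-type). Shares of a common sum are not independent, since a rise in one copy lowers the others. In CPM, myhz1.1 and myhz1.2 overlapped between genotypes (adjusted p = 0.746 and 0.479, edgeR quasi-likelihood test). Of all tested genes, 21.2% did not overlap in CPM. Sequences of the copies were not compared here, and the handling of reads with several matches is not given in the sources used here. How the reads were divided among the copies is therefore uncertain.

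The slow heavy chains had no member past the test with all libraries. Expression of smyhc1, a slow fibre motor, was 740, 638 and 584 CPM in miR-34a-/- against 664, 615 and 635 CPM in wild-type. Expression of smyhc2 was 82.8, 108 and 94.8 CPM in miR-34a-/- against 95.6, 74.9 and 74.7 CPM in wild-type. Both genes overlapped between genotypes (log2 fold change 0.04 ± 0.09 and 0.21 ± 0.12; adjusted p = 0.884 and 0.435, edgeR). With miR-34a-/- replicate 1 left out, smyhc2 passed (0.30 ± 0.10, adjusted p = 0.0461) and smyhc1 did not (-0.06 ± 0.07, adjusted p = 0.593). The 4 IDs of fast myosin light chains, which stiffen and regulate the myosin neck, had log2 fold changes between 0.05 and 0.11. The genotypes overlapped in each. With miR-34a-/- replicate 1 left out, 1 of them, MYL1 (ENSDARG00000017441), passed (0.22 ± 0.07, adjusted p = 0.0340, edgeR).

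Skeletal alpha-actin, the backbone of the thin filament, was represented by acta1b and by a second ACTA1 copy (ENSDARG00000036371). The second copy had 679, 725 and 745 CPM in miR-34a-/- libraries, against 479, 488 and 507 CPM in wild-type. All miR-34a-/- libraries were higher than all wild-type libraries, with a log2 fold change of 0.54 ± 0.07 (adjusted p = 0.00221, edgeR quasi-likelihood test). For acta1b, named after its values were seen, the values were 3028, 3230 and 3571 CPM in miR-34a-/- against 2513, 2815 and 2884 CPM in wild-type, which also did not overlap (0.26 ± 0.09, adjusted p = 0.178, and 0.0104 without miR-34a-/- replicate 1). The second copy took 18.0% ± 0.6 of the counts of both in miR-34a-/- and 15.3% ± 0.7 in wild-type (SD, n = 3 each), without overlap. Of the 5 thin filament IDs, this ACTA1 copy alone passed with all libraries, where 2.6% of all tested genes passed. Without miR-34a-/- replicate 1, 4 passed, where 15.6% of all tested genes did.

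Tropomyosin, which lies along actin and blocks myosin at rest, did not pass with all libraries. The tropomyosin gene tpma had 8192, 9453 and 10020 CPM in miR-34a-/- against 8635, 8423 and 8192 CPM in wild-type (0.13 ± 0.09, adjusted p = 0.503, and 0.0432 without miR-34a-/- replicate 1). The genotypes overlapped, with miR-34a-/- replicate 1 level with the lowest wild-type library. Nebulin, the giant ruler protein of the thin filament, had a log2 fold change of -0.15 ± 0.09.

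The troponin complex, which makes the thin filament sensitive to calcium, had 0 of 12 IDs past the edgeR quasi-likelihood test (2.6% of all tested genes). Of the 12 IDs, 2 had an unadjusted p under 0.05, where 15.3% of all tested genes did. By the DESeq2 Wald test, the likelihood ratio test and limma-voom 0 passed, where 2.9, 5.05 and 2.46% of all tested genes did. Of these IDs, 6 passed without miR-34a-/- replicate 1 (15.6% of all tested genes did) and 3 with the photoreceptor term (8.71% of all tested genes). Of the 12, 11 had a log2 fold change above 0, with a median of 0.14 over all 12. The slow/cardiac-type troponin T gene tnnt2e had 90.1, 120 and 128 CPM in miR-34a-/- against 93.8, 95.2 and 90.3 CPM in wild-type (0.27 ± 0.12, adjusted p = 0.295, edgeR, and 0.000860 without miR-34a-/- replicate 1). The slow/cardiac troponin C copy TNNC1 (ENSDARG00000037539) had 212, 259 and 284 CPM in miR-34a-/- against 256, 247 and 246 CPM in wild-type (0.01 ± 0.10, adjusted p = 0.962, edgeR). In both genes miR-34a-/- replicate 1 was the lowest library of all, and the genotypes overlapped. Of the counts of the 6 fast troponin I IDs, the main copy (ENSDARG00000029069) took 86.9% ± 0.9 in miR-34a-/- and 87.1% ± 0.8 in wild-type (SD, n = 3 each). A minor copy (ENSDARG00000045592), named after its values were seen, took 0.29, 0.84 and 0.88% in miR-34a-/- against 0.62, 0.40 and 0.28% in wild-type. Its log2 fold change was 0.76 ± 0.41 (adjusted p = 0.414, edgeR), and 1.13 without miR-34a-/- replicate 1 (adjusted p = 0.00105). The main TNNT3 copy (ENSDARG00000068457) took 81.1% ± 1.6 of fast troponin T counts in miR-34a-/- and 80.9% ± 1.1 in wild-type. Its log2 fold change was 0.16 ± 0.10 (adjusted p = 0.503, edgeR), and 0.27 without miR-34a-/- replicate 1 (adjusted p = 0.0172).

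Among calcium genes, 2 of 12 passed, in opposite directions, where 2.6% of all tested genes passed. The parvalbumin gene pvalb3 had 48.7, 44.4 and 48.7 CPM in miR-34a-/- libraries, against 22.7, 23.9 and 24.7 CPM in wild-type. The genotypes were well separated, with a 1.99-fold higher level in miR-34a-/- (log2 fold change 0.99 ± 0.08, adjusted p = 0.000198, edgeR quasi-likelihood test). This was the smallest adjusted p among the members. The other parvalbumins did not follow. Expression of pvalb2 was 8309, 9673 and 10680 CPM in miR-34a-/- against 9435, 9644 and 9218 CPM in wild-type (0.02 ± 0.09, adjusted p = 0.947). Expression of pvalb1 was 7098, 8216 and 8860 CPM in miR-34a-/- against 8444, 7964 and 7876 CPM in wild-type (-0.01 ± 0.09, adjusted p = 0.981), and pvalb4 had a log2 fold change of 0.07 ± 0.10.

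Of all parvalbumin counts of these 4 genes, pvalb3 took 0.264% ± 0.038 in miR-34a-/- and 0.132% ± 0.009 in wild-type (SD, n = 3 each). The libraries of the genotypes did not overlap in this share. In the RefSeq order pvalb3 lies between pvalb9 and pvalb2, and pvalb9 had a log2 fold change of -0.14 ± 0.10 (adjusted p = 0.529).

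The calsequestrin copy CASQ1 (ENSDARG00000038716), which stores calcium in the sarcoplasmic reticulum, had 212, 242 and 217 CPM in miR-34a-/- libraries, against 266, 299 and 305 CPM in wild-type. All wild-type libraries were higher, and the log2 fold change was -0.37 ± 0.08 (adjusted p = 0.0422, edgeR quasi-likelihood test). This call was close to the threshold: it was kept under 10 of 16 alternatives (adjusted p from 0.00369 to 0.230) and was lost when any single library other than miR-34a-/- replicate 1 was left out. The other CASQ1 copy (ENSDARG00000018105) had a log2 fold change of -0.08 ± 0.07. The first copy took 65.6% ± 1.9 of calsequestrin counts in miR-34a-/- and 70.0% ± 0.9 in wild-type (SD, n = 3 each), without overlap.

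The calcium pump atp2a1 (SERCA1) had 6776, 7409 and 7000 CPM in miR-34a-/- against 6380, 7076 and 7600 CPM in wild-type (0.01 ± 0.08, adjusted p = 0.971). The ryanodine receptor gene ryr1b, named here after its values were seen, had 132, 97.8 and 76.6 CPM in miR-34a-/- against 143, 144 and 173 CPM in wild-type. All miR-34a-/- libraries were lower than all wild-type libraries, but they also differed widely among themselves. The quasi-likelihood test was not passed with all of them (-0.59 ± 0.17, adjusted p = 0.117, edgeR, and 4.31e-05 without miR-34a-/- replicate 1). With all libraries ryr1b did pass by the edgeR likelihood ratio and DESeq2 Wald tests. The same held without the filter on low counts and with the photoreceptor term. The remaining calcium IDs (ryr3, atp2a1l, and the 2 CACNA1S copies of the dihydropyridine receptor) lay between -0.22 and 0.10.

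Of the 12 Z-disc, titin and desmin IDs, ky passed and was lower in miR-34a-/-, where 2.6% of all tested genes passed. In mice, ky encodes a transglutaminase-like protein of the Z-disc whose loss causes a muscle disease with a curved spine. It had 3 counts in each miR-34a-/- library, against 25, 18 and 19 in wild-type, or 9 against 62 in all. Allowing for library size, the ratio of miR-34a-/- to wild-type was 0.146 (95% exact interval 0.0638 to 0.296, counting error only). The fitted log2 fold change was -2.73 ± 0.37 (adjusted p = 0.00385, edgeR quasi-likelihood test), and at so few counts its size is uncertain. In the RefSeq order, protein-coding genes up to 3 away from ky on each side were read, where 2.6% of all tested genes passed. Of these, 2 passed: cfd (-0.95 ± 0.11, adjusted p = 0.00131) and rpia (-0.83 ± 0.07, adjusted p = 0.000304). Each had 1 protein-coding gene between it and ky. The genes directly beside ky, dnaaf9 (0.07 ± 0.16, adjusted p = 0.875) and slc4a11 (-0.42 ± 0.22, adjusted p = 0.393), did not pass. Farther out, eif2ak3 did not pass either (-0.33 ± 0.08, adjusted p = 0.0876), and pimr48 was not matched to a tested ID. The cause of the lower levels near ky was not tested.

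**Figure D3:**
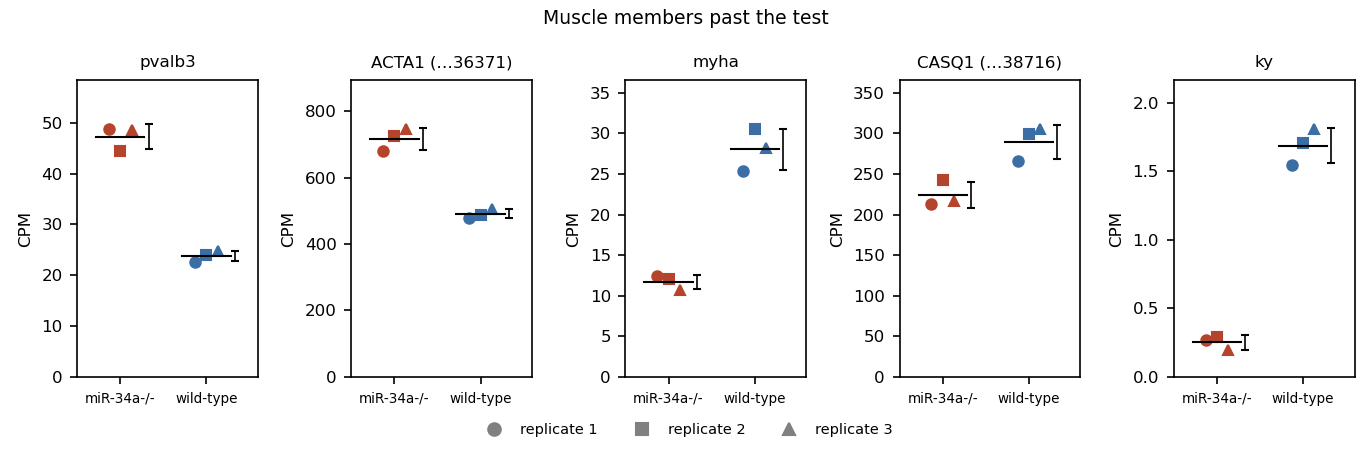
Expression in CPM (y axes from 0) of the 5 members past the test, with miR-34a-/- left of wild-type; points are libraries, lines are means and bars are SD (n = 3 each). In every panel the genotypes are separate: pvalb3 and ACTA1 are higher in miR-34a-/-, and myha, CASQ1 and ky are lower.

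**Figure D4:**
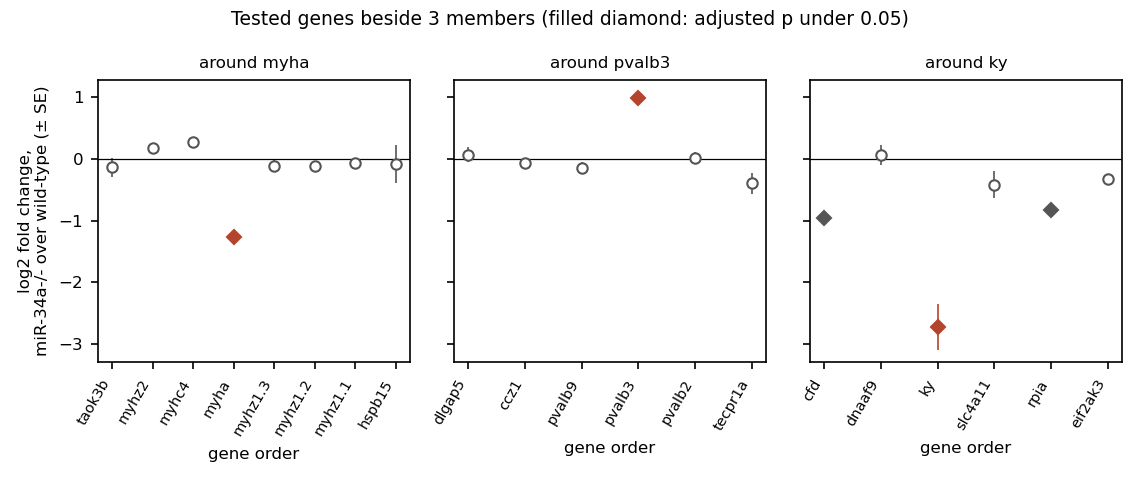
Log2 fold change, miR-34a-/- over wild-type (y axis, bars are SE), of the tested genes around myha, pvalb3 and ky (in red) in RefSeq gene order (assembly GRCz12tu); filled diamonds mark an adjusted p under 0.05. Only myha and only pvalb3 are past the test in their panels, while cfd and rpia are past it near ky.

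Titin was named after its values were seen. The titin gene ttn.1 had 766, 779 and 642 CPM in miR-34a-/- against 764, 920 and 1027 CPM in wild-type (-0.31 ± 0.11, adjusted p = 0.227, edgeR, and 0.0312 without miR-34a-/- replicate 1), and the genotypes overlapped. The second TTN ID (ENSDARG00000028213) had -0.35 ± 0.12 (adjusted p = 0.181, and 0.0183 without that library). The first took 51.1% ± 0.3 of titin counts in miR-34a-/- and 50.5% ± 0.2 in wild-type (SD, n = 3 each). Creatine kinase, which buffers ATP beside the sarcomere, did not pass: ckma had 4522, 5129 and 5364 CPM in miR-34a-/- against 4447, 4755 and 4834 CPM in wild-type (0.10 ± 0.08, adjusted p = 0.613), and ckmb had 5266, 5630 and 5722 CPM in miR-34a-/- against 5480, 5567 and 5604 CPM in wild-type (-0.003 ± 0.07, adjusted p = 0.989). The genotypes overlapped in both. The 3 IDs of myosin assembly factors (unc45b, a myosin chaperone, and the 2 SMYD1 IDs) lay between -0.02 and 0.03.

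Several members had their lowest miR-34a-/- value in replicate 1 and much higher values in the other miR-34a-/- libraries. The clearest was tcap, which encodes telethonin, the Z-disc cap of titin. It had 6.86, 49.1 and 56.3 CPM in miR-34a-/- libraries, against 11.9, 8.33 and 7.98 CPM in wild-type. Replicate 1 was below all wild-type libraries and replicates 2 and 3 were far above them. The log2 fold change was 1.98 ± 0.57 with all libraries (adjusted p = 0.122, edgeR quasi-likelihood test) and 2.46 without miR-34a-/- replicate 1 (adjusted p = 1.76e-09). With all libraries tcap did pass without the filter on low counts, by the likelihood ratio test and with the photoreceptor term.

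Desmin is the intermediate filament that ties Z-discs together. One of the DES IDs (ENSDARG00000058656) had 256, 381 and 391 CPM in miR-34a-/- against 261, 228 and 226 CPM in wild-type (0.52 ± 0.14, adjusted p = 0.103, edgeR quasi-likelihood test). With all libraries this ID did pass by the edgeR likelihood ratio and DESeq2 Wald tests, and without the filter on low counts. The fast heavy chain gene myhb had 94.6, 193 and 168 CPM in miR-34a-/- against 140, 89.8 and 78.7 CPM in wild-type (0.56 ± 0.26, adjusted p = 0.344). The tropomyosin gene tpm2 had 388, 518 and 545 CPM in miR-34a-/- against 420, 373 and 360 CPM in wild-type (0.33 ± 0.12, adjusted p = 0.223). In each of these genes, chosen after their values were seen, miR-34a-/- replicate 1 fell within the wild-type range, wild-type replicate 1 was the highest wild-type library, and the photoreceptor sum was likewise lowest in miR-34a-/- replicate 1 and highest among wild-type in replicate 1. Without miR-34a-/- replicate 1 all 3 passed: the log2 fold change was 0.70 ± 0.07 for this DES ID (adjusted p = 6.96e-06), 0.80 ± 0.15 for myhb (adjusted p = 0.00207) and 0.47 ± 0.07 for tpm2 (adjusted p = 0.000428). All 3 also passed with all libraries and the photoreceptor term.

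**Figure D5:**
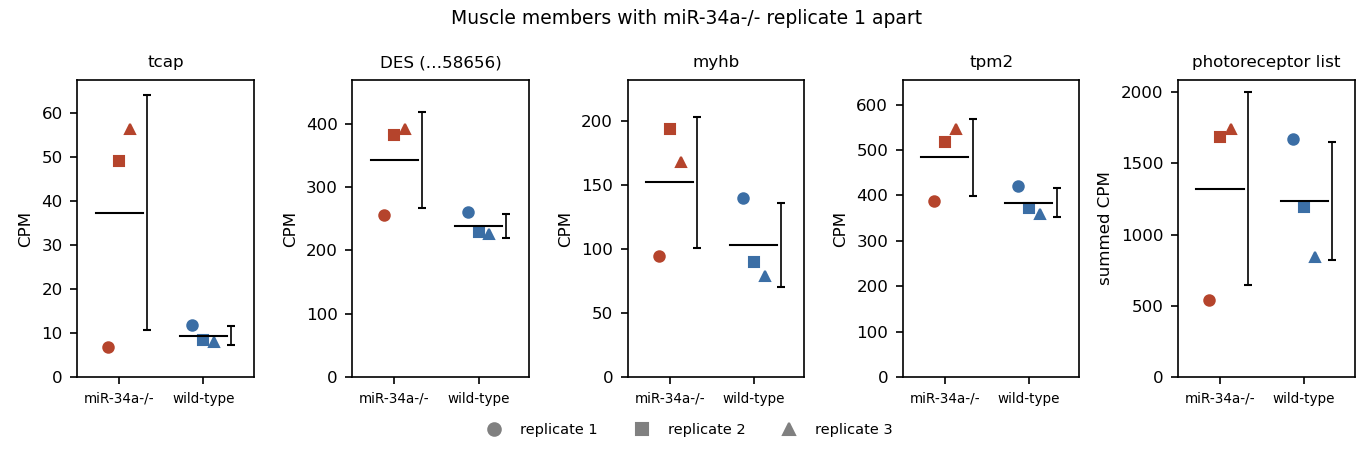
Expression in CPM (y axes from 0) of tcap, DES, myhb and tpm2, and the summed CPM of the photoreceptor list, with miR-34a-/- left of wild-type; points are libraries, lines are means and bars are SD (n = 3 each). In all panels miR-34a-/- replicate 1 (circle) lies below the other miR-34a-/- libraries, as for tcap at 6.86 against 49.1 and 56.3 CPM.

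Without miR-34a-/- replicate 1, 28 of the 61 IDs passed (45.9%), where 15.6% of all tested genes passed, and 20 were higher and 8 lower in miR-34a-/-, where 7.09 and 8.46% of all genes were. The 5 IDs that passed with all libraries were among them. By role, 6 of 12 troponin IDs and 4 of 5 thin filament IDs passed, all higher, and 4 heavy chains were higher and myha lower. Among calcium genes 4 were lower (ryr1b, ryr3, a CACNA1S and a CASQ1 copy) and pvalb3 higher. Of the Z-disc, titin and desmin IDs 6 of 12 passed, with tcap and both DES IDs higher and both titin IDs and ky lower. For ryr1b the log2 fold change was then -0.82. Adding the mean log2 photoreceptor level as a term to the fit of all 6 libraries gave 19 of 61 IDs past the test (31.1%). Of all tested genes, 8.71% then passed. With all 6 libraries, 8 IDs passed without a filter on low counts and 9 with the edgeR likelihood ratio test, where 2.7 and 5.05% of all genes passed. The DESeq2 Wald test gave 7 (11.5%), where 2.9% of all genes passed. The calls of pvalb3, the ACTA1 copy and myha were kept under all 16 alternatives and ky under all 15 that tested it.

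Other muscle genes, from lists outside the members, were read from the same fit. The lists were covered in part. An ID outside the members was found for 31 of 64 other sarcomere and Z-disc, 30 of 50 coupling and 13 of 32 energy metabolism symbols. For myogenic regulators it was 28 of 42, for junction genes 14 of 16 and for costamere genes 19 of 23. Of 139 IDs in 6 lists, 133 were tested and 4 passed (3.01%, against 2.6% of all tested genes). The count was 35 without miR-34a-/- replicate 1 (26.3%, against 15.6%), 22 higher and 13 lower, and 24 with the photoreceptor term (18.0%, against 8.71%). The neuromuscular junction gene chrne, the adult-type epsilon subunit of the acetylcholine receptor, had 25.5, 28.4 and 29.7 CPM in miR-34a-/- libraries, against 42.3, 44.7 and 48.3 CPM in wild-type. All miR-34a-/- libraries were lower (-0.69 ± 0.09, adjusted p = 0.00308, edgeR quasi-likelihood test). The myogenic transcription factor myod1 was lower too, with 6.499, 6.26 and 6.64 CPM in miR-34a-/- against 8.99, 11.4 and 12.7 CPM in wild-type (-0.76 ± 0.16, adjusted p = 0.0397).

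The thin filament nucleator lmod3 had 10.9, 12.4 and 10.1 CPM in miR-34a-/- against 7.005, 6.91 and 7.51 CPM in wild-type (0.64 ± 0.14, adjusted p = 0.0420). The sarcomere ubiquitin ligase trim63a had 30.2, 33.5 and 37.3 CPM in miR-34a-/- against 23.1, 21.7 and 25.8 CPM in wild-type (0.52 ± 0.11, adjusted p = 0.0340). Both were higher in every miR-34a-/- library. Like CASQ1, the calls of lmod3, trim63a and myod1 were lost on leaving out some single libraries, and only that of chrne was kept each time. By list, 2 of 31 other sarcomere and Z-disc genes, 1 of 25 myogenic regulators and 1 of 14 junction genes passed (2.6% of all tested genes). Without miR-34a-/- replicate 1 the counts were 15, 1 and 3, where 15.6% of all tested genes passed. In the other 3 lists, excitation-contraction coupling (31 tested), energy metabolism (13) and costamere genes (19), 0 passed the edgeR quasi-likelihood test. In these lists 6, 6 and 3 had an unadjusted p under 0.05, where 15.3% of all tested genes did. By the DESeq2 Wald test 0, 2 and 0 passed, by the edgeR likelihood ratio test 1, 2 and 1, and by limma-voom 0, 1 and 0. Of all tested genes 2.9, 5.05 and 2.46% passed these tests, in that order. The counts were 7, 6 and 3 without miR-34a-/- replicate 1, and with the photoreceptor term 4, 6 and 3 (8.71% of all tested genes).

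Of the markers listed for other muscle types, 13 of 19 cardiac and 6 of 13 smooth muscle symbols had an ID. Of the IDs tested, 0 of 13 cardiac and 0 of 6 smooth muscle IDs passed the edgeR quasi-likelihood test (2.6% of all genes). In these lists 2 and 1 had an unadjusted p under 0.05, where 15.3% of all tested genes did. Of the cardiac IDs, 1 passed the DESeq2 Wald test and 1 the likelihood ratio test, and 0 of the smooth muscle IDs passed either. By limma-voom 0 passed in both lists. Of all tested genes 2.9, 5.05 and 2.46% passed these tests, in that order. In these lists, 2 of 13 cardiac and 3 of 6 smooth muscle IDs passed without miR-34a-/- replicate 1, where 15.6% of all tested genes did. With the photoreceptor term 1 and 2 passed, where 8.71% of all tested genes did. The cardiac list summed to 576, 654 and 701 CPM in miR-34a-/- and 587, 583 and 543 CPM in wild-type, and the smooth muscle list to 146, 216 and 237 CPM in miR-34a-/- and 187, 166 and 150 CPM in wild-type. Both sums overlapped between genotypes, with miR-34a-/- replicate 1 the lowest miR-34a-/- library.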

How the data were processed

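Whole-embryo poly-A RNA was sequenced in 6 libraries at 72 hpf. The authors' table, as deposited, held unnormalised counts for each Ensembl gene and library. Per the submitters' processing notes the tools were Trim Galore 0.4.4 and STAR 2.7.8, with the danRer11 (GRCz11) build. Counting mode, strand and annotation release are not given in the sources used here. Groups came from the sample labels. Genes passing filterByExpr (19240 of 32520; 6010 were at 0 throughout) were tested in R 4.3.3 with edgeR 4.0.16 (TMM scaling, quasi-likelihood test, genotype as the only term), with Benjamini-Hochberg adjustment over all genes tested. CPM are counts over TMM-scaled library sizes. The SE of a log2 fold change was its absolute value over the square root of the quasi-likelihood F statistic, so it restates the test. The procedure was tested on simulated counts with the same dispersion for every gene and no library set apart. That test does not cover the spread around miR-34a-/- replicate 1. Each pair of replicates differed by more than sampling noise (chi-square per degree of freedom at least 1.73), and each library was counted as 1 replicate. That spread may be technical, so it does not show that the pools were independent. Symbols came from a name table that covered 29201 IDs, and gene order, of protein-coding genes only, from RefSeq.

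Values per library are given for every member past the test, for the 3 members of highest CPM and the 2 with the largest change in each class, and for other muscle genes past the test. Names outside this rule are marked. Members and lists were chosen with earlier results of these data known. For that reason no p is given for sums over members. In addition, 3 against 3 libraries cannot reach an exact permutation p below 0.1. Alternatives were DESeq2 1.42.0 size factors and Wald test, limma 3.58.1 voom, the edgeR likelihood ratio test, other scalings and filters, a replicate block, a photoreceptor term, and leaving out each library.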

Additional observations from a re-analysis of the deposited data

How the results depend on the processing

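The number of members past the test was 5. It was 7 with the DESeq2 Wald test (2.9% of all genes passed) and 8 without a filter on low counts (2.7%). It was 9 with the edgeR likelihood ratio test (5.05%) and 19 with a photoreceptor term (8.71%). It was 3 when only IDs with their own symbol or a pairing in the study's table were counted, an alternative chosen after seeing the data. It ranged from 4 to 28 when single libraries were left out, with 28 without miR-34a-/- replicate 1 and 4 without any other library; the 4 kept were pvalb3, the ACTA1 copy, myha and ky. With replicate number as a block it was 4, with CASQ1 lost (adjusted p = 0.0942, edgeR quasi-likelihood test). Deviations of same-numbered libraries correlated at -0.078, -0.00894 and -0.202. These values gave no sign that the numbers pair the libraries, but they cannot exclude it. The number of other muscle genes past the test, 4 in the report, was 7 without a filter, 8 with the likelihood ratio test, 1 with the block, 24 with the photoreceptor term, and 1 to 35 when single libraries were left out, with 35 without miR-34a-/- replicate 1. Of all genes, 2.7% passed without a filter, 5.05% with the likelihood ratio test, 8.71% with the photoreceptor term and 15.6% without miR-34a-/- replicate 1. For the block and for leaving out any other library, that share is not given here. The cause of this range was not tested. With total counts and no TMM the sign of the log2 fold change turned for atp2a1 (-0.048), pvalb2 (-0.042), TNNC1 (-0.047) and smyhc1 (-0.016), with the photoreceptor term for pvalb1 (0.012) and ckmb (0.003), and for ckmb also with DESeq2 size factors (0.00087) and the Wald test (0.00089). Leaving out single libraries turned the sign of the same genes, with ranges of -0.055 to 0.07 for atp2a1, -0.08 to 0.078 for pvalb1, -0.069 to 0.11 for pvalb2, -0.027 to 0.033 for ckmb, -0.082 to 0.12 for TNNC1 and -0.062 to 0.11 for smyhc1. None of these genes passed under any alternative run. The class shares moved by less than the spread between replicates. At this depth ky, with 3 counts in each miR-34a-/- library, is the member least well measured. Copies of one family, not compared in sequence and counted by rules not given in the sources used here, limit what can be said of a single copy.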

Other observations

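Apart from creatine kinase, enzymes that supply muscle with energy were not part of the comparison of members, and only 13 of the 32 listed symbols had an ID. In the energy metabolism list, 9 of the 13 genes tested had a log2 fold change above 0, with a median of 0.12 against -0.01 over all genes tested, and 0 passed the edgeR quasi-likelihood test with all libraries. Of the 13, 6 had an unadjusted p under 0.05 (15.3% of all genes did) and 2 passed the DESeq2 Wald test (2.9% of all genes). Without miR-34a-/- replicate 1, 6 passed (15.6% of all genes), all higher, and 6 with the photoreceptor term (8.71%), 5 higher and 1 lower. The glycolytic enzyme gapdh, chosen after its values were seen, had 1517, 1701 and 1857 CPM in miR-34a-/- libraries, against 1344, 1322 and 1291 CPM in wild-type. Its libraries did not overlap, and it did not pass the test with all libraries (log2 fold change 0.36 ± 0.08, adjusted p = 0.0524, edgeR quasi-likelihood test, and 0.000378 without miR-34a-/- replicate 1). The calcium pump gene atp2a2a of slow and cardiac muscle, also chosen after its values were seen, had 36.5, 31.1 and 31.5 CPM in miR-34a-/- against 46.8, 41.9 and 40.6 CPM in wild-type, without overlap (-0.39 ± 0.09, adjusted p = 0.0653, and 0.00226 without that library).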
